A study of Artemisia annua with 12 samples.

Results

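Among the leaf transcripts of Artemisia annua, 48 genes held a well expressed and nearly level course through 6 h of added UV-B. They were picked by their values: a mean from 100 to 1000 in the libraries at 0 h, and a difference of at most 0.2 between the largest and the smallest of the 4 harvest means of log2(value + 1), which is a factor of 1.15. They are 48 of 63226 listed genes (0.0759%) and 5.36% of the 895 genes at that level before UV-B. Because their harvest means chose them, the levelness of those means is a description and no finding. The label of stable genes held on the deposited scale and depends on it, as the values under another scaling below show.

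The plants were 6-week-old wild-type seedlings of Huhao 1, a cultivar bred for a high artemisinin content, raised in a greenhouse with 16 h of light and 8 h of dark. Narrowband UV-B lamps of 1.5 μmol per square metre and second were added, and the youngest fully expanded leaf was taken after 0, 2, 4 and 6 h, in the groups UV0, UV2, UV4 and UV6. Each harvest has 3 libraries, and each library is a pool of leaves of 3 seedlings. No seedlings kept without added UV-B to 2, 4 or 6 h were analysed here, so the length of exposure and the time of day cannot be told apart. Library totals of the normalised values lay between 851404 and 868133. Read depth is unknown, and the precision of each value is read from the spread of the 3 libraries.

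UV-B is perceived in plants by the photoreceptor UVR8, whose active form binds COP1 and lets the transcription factor HY5 act on genes of flavonoid synthesis, light protection and DNA repair. In Artemisia annua, artemisinin is made in glandular trichomes of the leaf surface. Genes with steady transcripts matter in such work because reverse-transcription PCR expresses every other gene relative to them; ubiquitin, actin, tubulin and translation elongation factor genes are common choices in plants. The deposited table gives identifiers without names and no annotation was used here, so it is not known whether any such gene is among the 48, and markers of leaf cell types could not be looked up. Fewer cells of a type and less RNA per cell cannot be told apart in these bulk values, and a level course means a constant part of the library's listed transcripts.

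Mean values of the 48 genes at 0 h ran from 101.9 to 594.7, with a median of 187.2, against 100.3 to 987.6 and a median of 176.2 for the 847 other genes at that level. Values of 100 to 200 were found for 28 of them (58.3%), against 492 of the other 847 (58.1%). None of the 48 lay above 594.7, while the rule allowed 1000. The same limit of range was met by 6.75% of 7557 genes at 10 to 100 and by 4.96% of 13842 genes at 1 to 10. Above 1000, it was met by 3 of 97 genes (3.09%).

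Differences between harvest means were far larger for most genes at this level. The median of the range over 4 harvests was 0.15 on the log2 scale for the stable genes and 0.79 for the other 847 genes. A limit of 0.1 was met by 5 genes, one of 0.3 by 115, and one of 1, a doubling, by 608 of the 895. No gene came within 0.05. No gap separates the stable genes from the rest: the gene just inside the limit had a range of 0.1997 and the one just outside it 0.2003. At the lower level limit, the nearest level genes had means at 0 h of 101.9 inside and 98.6 outside. At the upper limit they had 594.7 inside and 1751 outside.

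**Figure D1:**
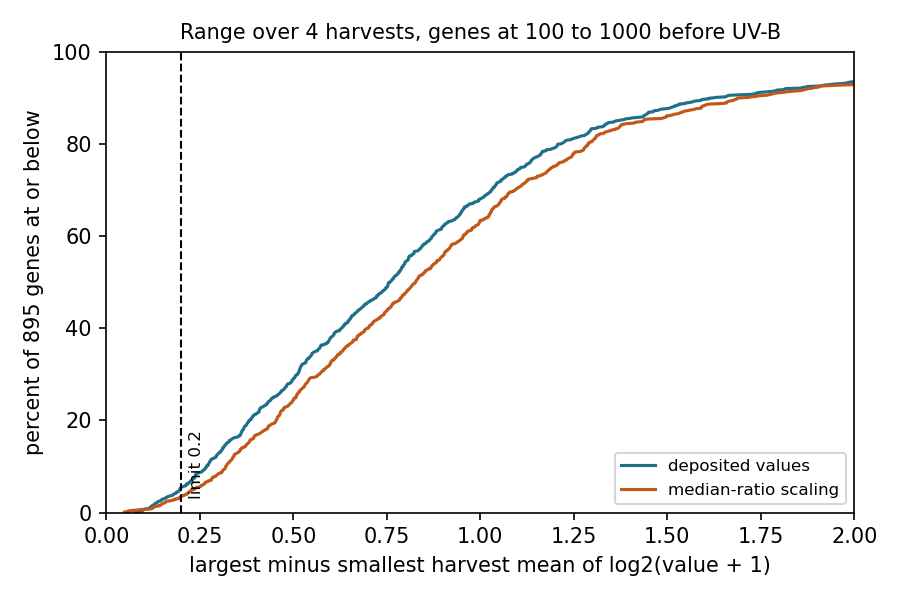
Cumulative percentage (y axis) of the 895 genes at 100 to 1000 before UV-B whose range over the 4 harvest means of log2(value + 1) was at or below the value on the x axis, for deposited values and after median-ratio scaling. Both curves cross the limit of 0.2 on a smooth slope, with 5.36% of the genes at or below it on deposited values, and the x axis ends at 2.

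The steadiest gene over single libraries was CTI12_AA368000. Its values were 117.45, 115.87 and 116.84 at 0 h, 107.19, 115.76 and 111.68 at 2 h, 118.37, 116.00 and 118.98 at 4 h, and 117.33, 116.09 and 111.19 at 6 h. Its lowest library, replicate 1 at 2 h, lay a factor of 1.11 below its highest, and each library at 0 h and at 4 h was above each at 2 h, while those at 6 h overlapped the other harvests. Harvest means were 116.7 ± 0.797 (SD, n = 3), 111.5 ± 4.29, 117.8 ± 1.57 and 114.9 ± 3.25. The coefficient of variation over all 12 libraries was 3.00%, the lowest of the 48, whose median was 5.52%. For the median other gene of this level it was 23.0%. This value includes the differences between harvest means by which the genes were chosen, so the gap between the 2 sets is a description.

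CTI12_AA315480 came second, with values of 131.27, 136.09 and 133.07 at 0 h, 129.01, 133.92 and 129.58 at 2 h, 134.04, 130.09 and 130.41 at 4 h, and 121.14, 121.30 and 126.06 at 6 h. All 3 libraries at 6 h were below all others of this gene. The mean was 122.8 ± 2.80 at 6 h, against 133.5 ± 2.44 at 0 h (SD, n = 3 each).

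CTI12_AA400840 had the highest level of the 48 genes and was singled out after its values were seen. It stood at 604.54, 593.71 and 585.98 at 0 h, 594.23, 640.80 and 638.25 at 2 h, 604.13, 611.60 and 601.34 at 4 h, and 604.60, 581.12 and 565.98 at 6 h. Each pair of harvests overlapped; 2 libraries at 2 h stood above all others, and the lowest value was found at 6 h. Over single libraries, 40 of the 48 genes had a highest value at most 1.25 times the lowest.

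**Figure D2:**
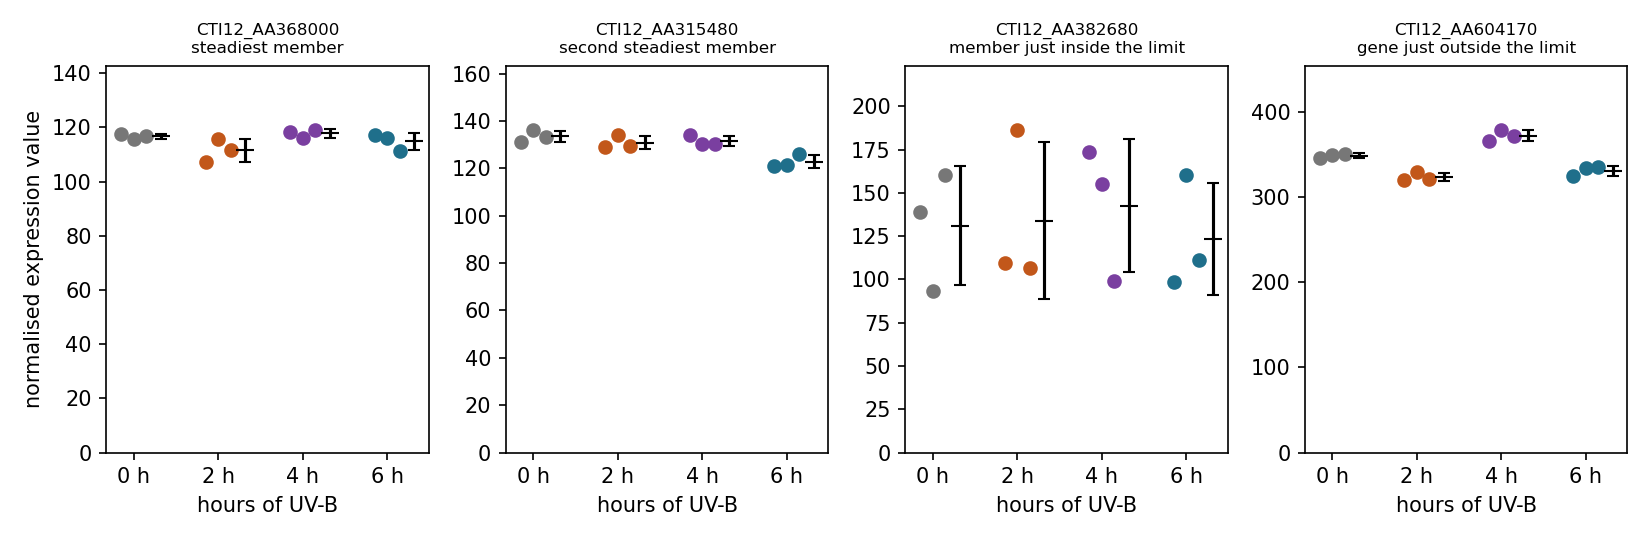
Normalised expression values (y axis, from 0) of 3 stable genes and of the gene just outside the limit, by hours of UV-B (x axis). Coloured points are single libraries in the order of their replicate numbers and black bars give mean ± SD of 3 libraries; CTI12_AA382680 spreads from 93.36 to 186.20 while its harvest means stay between 123.4 and 142.7.

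The gene just inside the limit, CTI12_AA382680, was level in its means only. Its values were 139.21, 93.36 and 160.46 at 0 h, 109.33, 186.20 and 106.40 at 2 h, 173.48, 155.10 and 99.38 at 4 h, and 98.81, 160.12 and 111.23 at 6 h. Every harvest held low and high libraries, and they overlapped throughout. The SD within a harvest, pooled over the 4 harvests, was 0.41 on the log2 scale, the largest of the 48 genes and 11th of the 895, where the median stable gene had 0.048. The 95% interval of its change at 6 h against 0 h ran from -0.76 to 0.60, so its level course is not established at this precision.

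CTI12_AA005810, singled out after its values were seen, had the second largest spread, with a pooled SD of 0.20. It had 108.24, 149.28 and 113.72 at 0 h, 133.03, 121.60 and 117.36 at 2 h, 106.36, 106.60 and 128.47 at 4 h, and 105.66, 150.13 and 120.32 at 6 h. Replicate 2 was the highest library at 0 h and 6 h, and values of all harvests overlapped. The next gene in this order had a pooled SD of 0.109, so these 2 stood apart from the other stable genes.

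CTI12_AA604170, at 0.2003 just outside the limit, had libraries that lay close together. They stood at 345.91, 348.58 and 350.84 at 0 h, 319.79, 329.25 and 320.99 at 2 h, 365.49, 378.16 and 371.30 at 4 h, and 324.22, 333.29 and 335.14 at 6 h. Its libraries at 4 h were above those of every other harvest and its libraries at 0 h above those at 2 h and 6 h. Over single libraries the highest value of CTI12_AA382680, which the limit kept, was 1.99 times the lowest, and that of CTI12_AA604170, which it left out, was 1.18 times the lowest.

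Small differences between harvests remained among the 48 genes. The 0 h harvest had the highest mean for 17 of them, 4 h for 14, 2 h for 10 and 6 h for 7. The 2 h harvest had the lowest mean for 19 stable genes (39.6%), 0 h for 11 (22.9%), 4 h for 10 (20.8%) and 6 h for 8 (16.7%). For the others these shares were 34.9%, 27.0%, 13.1% and 24.9%. Median log2 changes of the stable genes against 0 h were -0.026, -0.00012 and -0.016 at 2, 4 and 6 h, within limits that the rule set. Changes at 2 h ran from -0.20 to 0.19, with 19 genes above and 29 below their level at 0 h. At 4 h 24 genes were above and 24 below, and at 6 h 21 and 27.

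**Figure D3:**
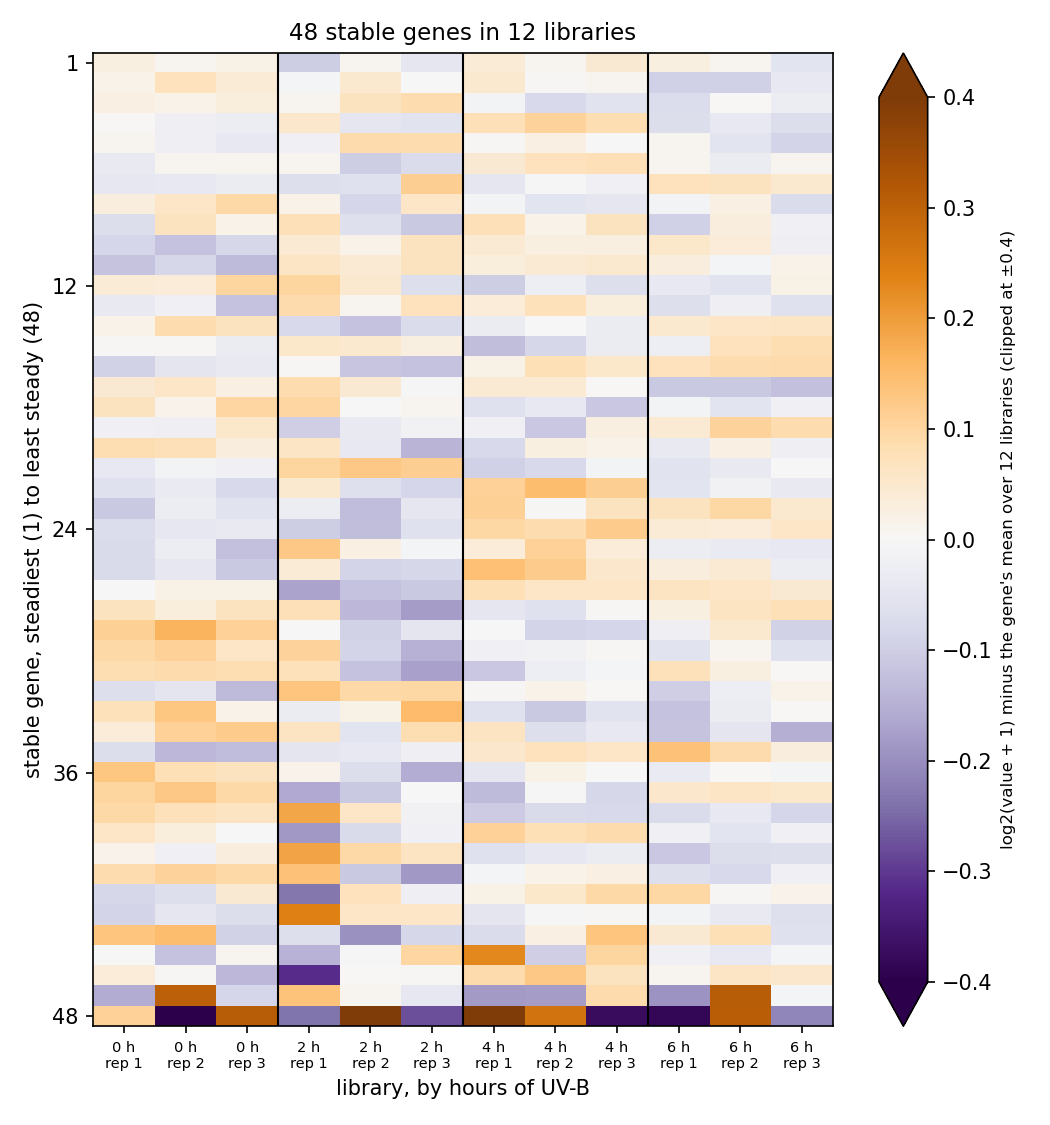
Deviation of log2(value + 1) from each gene's mean over 12 libraries (colour, clipped at ±0.4) for the 48 stable genes (rows, by their range over single libraries) in the 12 libraries (columns, by hours of UV-B). The 2 rows at the bottom, CTI12_AA005810 and CTI12_AA382680, change colour within harvests, and replicate 1 at 2 h departs from its neighbours in the lower rows.

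Such remaining differences are shown by a pair of genes that were singled out after their values were seen. CTI12_AA317160 had 205.25, 210.37 and 203.15 at 0 h, 232.67, 229.51 and 233.47 at 2 h, 228.01, 229.21 and 230.28 at 4 h, and 227.27, 221.53 and 225.42 at 6 h. Each library under UV-B was above each at 0 h, and the log2 change at 2 h was 0.17 ± 0.0234 (SE). CTI12_AA188520 stood at 278.51, 265.45 and 266.43 at 0 h, 281.72, 283.58 and 287.78 at 2 h, 302.20, 306.10 and 303.89 at 4 h, and 321.54, 310.01 and 297.91 at 6 h. Its mean was 309.8 ± 11.8 at 6 h, against 270.1 ± 7.27 at 0 h (SD, n = 3 each), a log2 change of 0.20 ± 0.0307 (SE). The sizes and directions of both depend on the scale. After median-ratio scaling the changes at 2, 4 and 6 h were -0.081, -0.083 and -0.042 for CTI12_AA188520, and 0.014, -0.10 and -0.11 for CTI12_AA317160.

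Some of these small differences passed the test used for all genes, limma's moderated test at a Benjamini-Hochberg adjusted p under 0.05 over 25841 genes. The rule used the same means, so the numbers that follow are a description and nothing is read from them. At 2 h against 0 h, 15 of the 48 genes were called, where 57.0% of all tested genes were; 8 were higher and 7 lower, beside 36.2% and 20.8% of all. At 4 h 19 were called, beside 60.0%, with 12 higher and 7 lower, beside 42.0% and 18.0%. At 6 h 14 were called, beside 59.8%, with 6 higher and 8 lower, beside 41.3% and 18.5%. Without replicate 1 at 2 h, which enters the shared estimate of spread, 30 genes in place of 19 were called at 4 h. Of the 25413 genes then tested, 10937 were higher and 4697 lower. After median-ratio scaling, 32, 42 and 42 genes were called at 2, 4 and 6 h, every one of them lower. The direction at 4 h and 6 h follows from the rule and the common shift of that scaling, given below. Of all tested genes, 28.7%, 28.5% and 28.7% were higher under this scaling and 28.0%, 28.3% and 28.4% lower. Scaled to the total without the 10 highest genes, the counts were 5 higher and 17 lower at 2 h, 5 and 21 at 4 h, and 1 and 22 at 6 h. Of all genes, 33.6%, 37.8% and 37.2% were then higher and 22.8%, 20.5% and 21.0% lower. Without trend or robust estimation, limma called 10 of the 48 genes at 4 h, beside 42.0% of all genes higher and 18.0% lower.

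Taking the 3 exposed harvests together, 19 of the 48 genes were called at none of them, 13 at 1, 13 at 2 and 3 at each. Of all tested genes, 20.8% were called at none, 19.4% at 1, 21.9% at 2 and 37.9% at each. Of the 48, 1 gene was called higher at 2 h and lower at 6 h; no other gene was called in opposite directions. Between 4 h and 2 h, 19 of the 48 genes were called, beside 50.6% of all tested genes, with 11 higher at 4 h and 8 lower, beside 31.1% and 19.5%. Between 6 h and 4 h, 3 were called, beside 9.91%, and all 3 were lower at 6 h, beside 4.44% of all genes higher and 5.47% lower. This number of 3 was 6 without replicate 1 at 2 h, beside 1245 higher and 1594 lower of 25413 tested genes. It was 5 without replicate 3 at 2 h, beside 1100 and 1398 of 25444. Between 6 h and 2 h, 19 were called, beside 49.9%, with 8 higher at 6 h and 11 lower, beside 29.9% and 20.0%. Median-ratio scaling gave 2 higher and 19 lower both between 4 h and 2 h and between 6 h and 2 h. Of all genes, 24.8% were then higher and 23.8% lower between 4 h and 2 h, and 24.6% and 24.1% between 6 h and 2 h. The F test over the 3 exposed harvests called 30 of the 48 genes and 75.5% of all tested genes. Without trend or robust estimation limma called 17 by the F test, beside 19513 of all 25841 genes. It called 8 between 4 h and 2 h, beside 31.1% of all genes higher and 19.4% lower. Between 6 h and 2 h it called 8, beside 29.8% and 20.1%. Between 6 h and 4 h it called 0, beside 4.18% and 4.9%, and 6 had an unadjusted p under 0.05. Models of only the harvests compared called 29 at 4 h against 0 h, beside 10702 higher and 4666 lower of all genes. At 6 h against 2 h they called 12, beside 7014 and 4759.

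The limit holds the changes themselves within 0.2, so their intervals describe only the precision beside that limit. The median SE of a change between harvests was 0.0397 on the log2 scale, and the median 95% interval reached 0.087 to either side. At 6 h against 0 h, the interval lay within ±0.2 for 33 of the 48 genes, within ±0.3 for 46 and within ±0.5 for 47, the exception being CTI12_AA382680. At 2 h these numbers were 30, 45 and 47, and at 4 h 26, 46 and 47. A gene that was not called is not thereby shown to be constant.

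The range was also read in libraries that had no part in the choice. Genes were chosen by the same rule on 2 libraries per harvest and then read in the libraries of the replicate number left out. With replicate 3 left out, 44 genes were chosen, of which 35 were among the 48, and 25 of the 44 (56.8%) stayed within 0.2 over the 4 left-out libraries. Of the 859 other genes at that level, 20 did (2.33%). With replicate 2 left out, 25 of 44 chosen genes (56.8%) and 17 of 848 others (2.00%) did, and with replicate 1 left out, 22 of 45 (48.9%) and 23 of 845 (2.72%). The median range in the left-out libraries was 0.17 to 0.20 for the chosen genes and 0.79 to 0.81 for the others. It exceeded 0.5 for 0 of 45, 1 of 44 and 2 of 44 chosen genes, with replicates 1, 2 and 3 left out. The left-out libraries come from the same 4 harvests and carry the same scaling, so they cannot show whether a level course holds under another scaling. A range over single libraries is wider than one over means.

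The spread between libraries of a harvest was small for the stable genes at 3 of the 4 harvests. The median SD of log2(value + 1) was 0.0288 for the stable genes and 0.0333 for the 847 others at 0 h, 0.0299 and 0.0371 at 4 h, and 0.0288 and 0.0406 at 6 h. At 2 h the order was turned, with 0.0710 for the stable genes and 0.0642 for the others. Among genes at 200 or more before UV-B, the medians at 0, 2, 4 and 6 h were 0.0243, 0.0596, 0.0151 and 0.0236 for 20 stable genes, and 0.0264, 0.0575, 0.0305 and 0.0351 for 355 others. Among genes at 100 to 200 they were 0.0330, 0.0793, 0.0385 and 0.0320 for 28 stable genes, and 0.0405, 0.0717, 0.0429 and 0.0458 for 492 others. Genes with a large spread meet a limit on means less often, so the choice itself favours a small spread, and no test is given. Leaving out a library leaves an SD of 2 values, which tends to be smaller than one of 3. Such medians therefore compare only with each other. For the stable genes they were 0.0245, 0.0238 and 0.0191 at 0 h without replicates 1, 2 and 3. At 4 h they were 0.0184, 0.0246 and 0.0259.

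**Figure D4:**
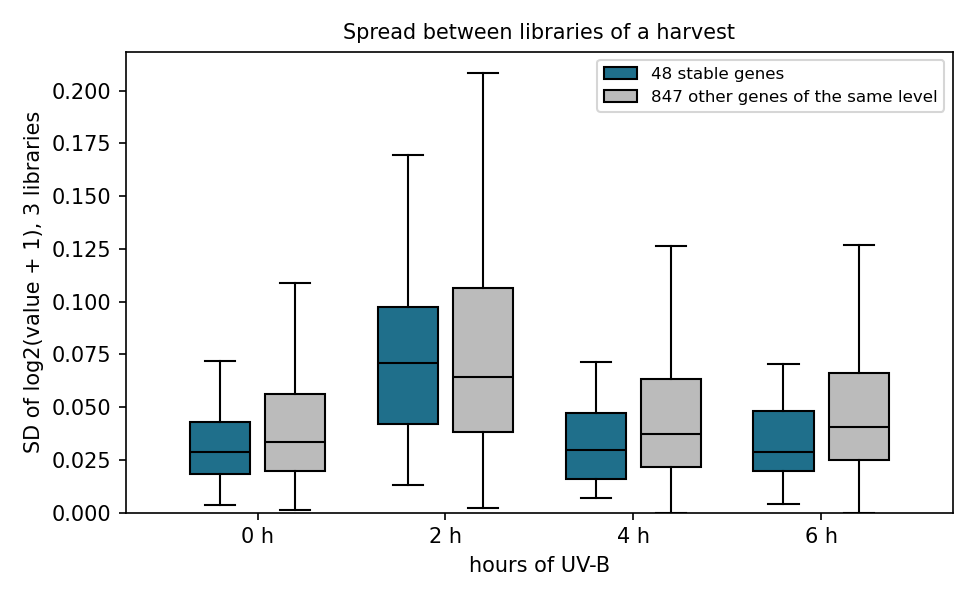
SD of log2(value + 1) over the 3 libraries of a harvest (y axis) by hours of UV-B (x axis) for the 48 stable genes and the 847 other genes at 100 to 1000 before UV-B; boxes give quartiles, centre lines medians, and whiskers the last value within 1.5 box lengths. The 2 h harvest has the widest boxes, with medians of 0.0710 and 0.0642.

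The wide spread at 2 h came with replicate 1. The median absolute difference over the 48 genes was 0.101 between replicates 1 and 2 and 0.104 between replicates 1 and 3. It was 0.0490 between replicates 2 and 3. For the other genes at that level these differences at 2 h were 0.0899, 0.104 and 0.0419. The departure of replicate 1 was therefore not particular to the stable genes. At the other harvests the differences between pairs of libraries lay between 0.0261 and 0.0439 for the 48 genes, and between 0.0366 and 0.0529 for the others. Replicate 1 at 2 h was the highest of the 12 libraries for 11 of the 48 genes and the lowest for 8. Replicate 2 of that harvest was the highest for 3 and the lowest for 6, and replicate 3 the highest for 5 and the lowest for 9. These counts were not made for the other genes, so nothing is read from them. Over the 2 libraries left without replicate 1, the median SD of the stable genes at 2 h was 0.0346. It was 0.0737 without replicate 2 and 0.0717 without replicate 3. Without replicate 1 at 2 h the rule chose 48 genes, of which 41 were the same.

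Summed over the 48 genes, values were 11210, 11271 and 11205 at 0 h, 11296, 11084 and 11095 at 2 h, 11372, 11372 and 11363 at 4 h, and 11102, 11290 and 11106 at 6 h. This was 1.29% to 1.33% of each library's total, while the 895 genes of the level band together held 27.1% to 28.2% under UV-B, against 24.86% to 24.99% at 0 h. Over the 1128 pairs of stable genes, the SD of the log2 ratio in the 12 libraries ran from 0.029 to 0.440 with a median of 0.110, and the pairs with CTI12_AA382680 had a mean of 0.370. The limit on harvest means bounds the sum, and most of these ratios, by construction, so they are a description.

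A gene that ended near its starting value need not have met the limit over all 4 harvests. At 6 h, 245 of the 895 genes were within 0.2 of their mean at 0 h, and the 48 stable genes are 19.6% of these. They are 23.8% of the 202 genes within 0.2 at 2 h and 20.1% of the 239 at 4 h. The share is therefore not particular to 6 h, and it is a description on the deposited scale. Of the other 197 genes near their 0 h mean at 6 h, 92 had been above the 0 h level by more than 0.2 at 2 h. At 2 h 67 were below it by more, and 38 were within 0.2. At 4 h, 65 of the 197 were more than 0.2 from their 0 h mean, and the rest were within it. Their median range over the harvests was 0.52, and 46 of them had a range over 1.

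The rule itself holds the stable genes near their 0 h level at each harvest. For the 847 other genes of the band, the median log2 changes at 2, 4 and 6 h against 0 h were -0.18, -0.15 and -0.19, and for all 25841 tested genes they were 0.13, 0.21 and 0.20. The 10 highest genes of each library held 14.6% to 16.0% of its total under UV-B, against 20.4% to 20.7% at 0 h. Their part in these shifts was not tested. The rescaling that follows leaves out a fixed set, the 10 genes highest in the mean over all 12 libraries.

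Which genes count as stable depended on the scaling. Median-ratio scaling, which sets the median gene to no change, chose 34 genes of 1009 at that level, and 8 of the 48 were among them. After it, the 48 genes had median log2 changes of -0.18, -0.25 and -0.25 at 2, 4 and 6 h. All 48 had lower means at 4 h and 6 h than at 0 h, and 45 had at 2 h. Their median range became 0.30, and the largest 0.44. This scaling divides each library by 1 factor, from 0.887 to 0.898 at 0 h and from 1.04 to 1.08 at 4 h and 6 h. Every gene at this level is thereby lowered at 4 h and 6 h by nearly the same amount, more than 0.2. The rule held rises to at most 0.2, so the fall of all 48 there follows by construction and is no finding. The shift at 2 h was smaller, with factors of 0.979 to 1.03. In turn, the 34 genes chosen under that scaling had median changes of 0.13, 0.23 and 0.25 on deposited values, with all 34 higher at 4 h and at 6 h than at 0 h. That direction too follows from the same factors and the limit of 0.2. Scaling to the total without the 10 highest genes, an alternative chosen after the values were seen, was milder: it chose 49 genes, 36 of them among the 48, with median changes of -0.074, -0.070 and -0.084 for the 48. No spike-in or other outside standard was used here, and which scaling follows the amount of RNA per cell was not tested.

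**Figure D5:**
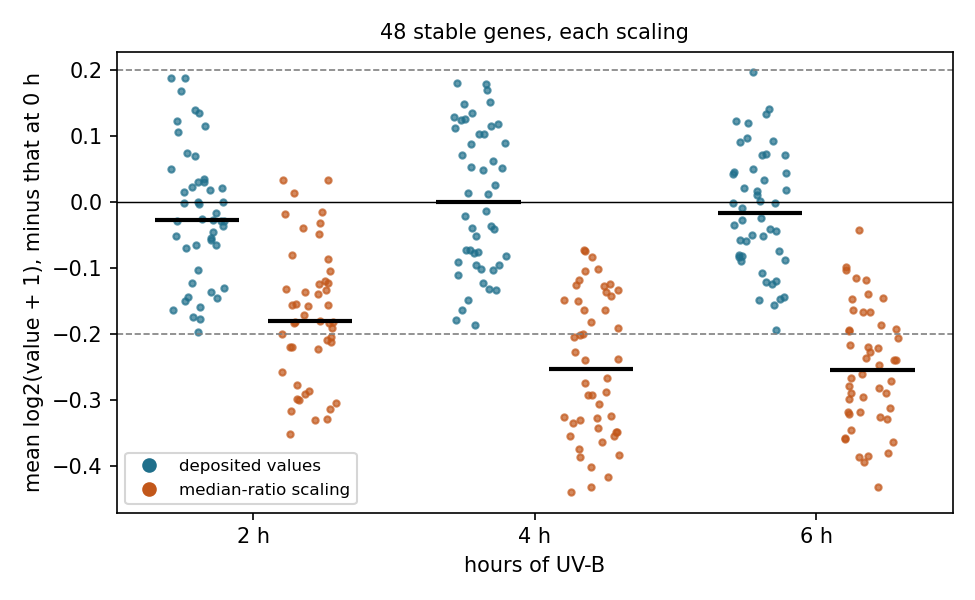
Mean log2(value + 1) of each of the 48 stable genes at 2, 4 and 6 h of UV-B (x axis) minus its mean at 0 h (y axis), on deposited values and after median-ratio scaling; points are genes, thick lines medians, dashed lines ±0.2. Points of the deposited values stay within the dashed lines by the rule, and those after median-ratio scaling centre on -0.18, -0.25 and -0.25.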

How the data were processed

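Leaf RNA of 12 libraries in 4 harvests was sequenced. The deposited table holds a normalised signal per gene and library; no unit is named in it, and the values behave like TPM or FPKM. HISAT2 2.1.0, Salmon and DESeq are listed in the submitters' processing notes, with no role stated. No genome build is named in the sources used here. Columns were matched to samples by their names, which carry the group and replicate number of the titles.

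Values were taken as log2(value + 1), which understates changes of low values. Genes at 1 or more in at least 3 libraries were tested (25841, the 48 stable genes included) with limma 3.58.1 in R 4.3.3, in one model of 12 libraries with a variance trend, robust estimation and Benjamini-Hochberg adjustment; intervals are limma's at 95%. The code was tested on simulated data. Medians over genes are descriptions. The p-values measure the spread between libraries, which the labels call biological repeats.

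The gene set and all lists were chosen with earlier results of these data known. Lists of gene names were drawn up but could not be applied without names. By rule, 4 identifiers are named: the 2 steadiest over 12 libraries, the gene just inside the limit and the one just outside. Alternatives were other pseudocounts, limits, filters and scalings, a replicate block, limma with neither trend nor robust estimation, models of 2 harvests, and leaving out each library.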

Additional observations from a re-analysis of the deposited data

Results flagged for a closer look

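Some of the stable genes differed between exposed harvests when these were compared directly (limma, adjusted p under 0.05). There were 19 such genes between 4 h and 2 h, where 50.6% of all tested genes were called, 3 between 6 h and 4 h, beside 9.91%, and 19 between 6 h and 2 h, beside 49.9%. Each differed by at most 0.20 on the log2 scale. The same contrasts chose the genes, so the numbers describe what the limit of 0.2 let through.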

How the results depend on the processing

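Of 241 alternative values, 215 stayed within 1.5 times the reported count or spread, within the spread between libraries for a change, or within the 95% binomial interval for a share. Some of these could not move: without a library from outside the harvests compared, the median change repeats the reported value. A count can also stay within its limit while its genes differ. Median-ratio scaling chose 34 genes, which counted as unmoved, but only 8 of them were stable genes on deposited values. The number 215 is therefore no measure of robustness. Numbers of stable genes were 5, 26 and 115 with limits of 0.1, 0.15 and 0.3, and 42 to 49 without single libraries. Pseudocounts of 0.1 and 5 gave 47 and 50 genes. Median-ratio scaling moved the genes called at 2, 4 and 6 h against 0 h to 32, 42 and 42, and the change of the median stable gene to -0.18, -0.25 and -0.25. Scaling without the 10 highest genes moved these changes to -0.074, -0.070 and -0.084, and the genes called at 6 h to 23. Without trend or robust estimation limma called 10 at 4 h against 0 h, 8 at 4 h and 8 at 6 h against 2 h, 17 by the F test, and 0 at 6 h against 4 h, where 6 had an unadjusted p under 0.05. Models of only the harvests compared called 29 at 4 h against 0 h and 12 at 6 h against 2 h. The calls among all tested genes under these settings are given with the results above. Each scaling shifts all genes of a harvest nearly alike, as given above for median-ratio scaling. The cause of the other differences was not tested.

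Without single libraries, stable genes called ranged from 13 to 20 at 2 h, 14 to 30 at 4 h and 11 to 20 at 6 h against 0 h. Against 2 h they ranged from 13 to 25 at 4 h and 13 to 24 at 6 h. Between 4 h and 6 h they ranged from 2 to 6, and by the F test from 26 to 36. Of all 25413 to 25690 genes then tested, higher were 8215 to 9281 at 2 h, 9947 to 10937 at 4 h and 9753 to 10764 at 6 h. Lower were 4600 to 5334, 4010 to 4697 and 4096 to 4842. Against 2 h, 7056 to 7955 were higher and 4225 to 5016 lower at 4 h, and 6783 to 7632 and 4302 to 5143 at 6 h. Between 4 h and 6 h these were 834 to 1245 and 880 to 1594. The F test called 18287 to 19045. Median changes of the stable genes then ranged from -0.034 to -0.0082 at 2 h, -0.0056 to 0.0071 at 4 h and -0.027 to 0.0011 at 6 h. Median SDs ranged from 0.0191 to 0.0245 at 0 h, 0.0346 to 0.0737 at 2 h, 0.0184 to 0.0259 at 4 h and 0.0230 to 0.0311 at 6 h. Each is over the 2 libraries left in a harvest and does not compare with the medians over 3. Same-numbered libraries of different harvests did not deviate together (r from -0.025 to 0.043 across genes in 18 pairs). No pairing was seen, but deviations from means of 3 libraries cannot exclude one, and whether the numbers pair libraries is unknown. A replicate block gave 15, 17 and 13 stable genes called at 2, 4 and 6 h. Of all 25841 genes it called 9164, 10663 and 10491 higher and 5251, 4565 and 4688 lower.

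Read depth is unknown, and no interval for counting error can be given.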
